A study of Mus musculus with 13 samples.

Results

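The genes described here are the collagen chains of mouse back skin and the enzymes that modify them: 43 genes for collagen chains, 3 for catalytic subunits of prolyl 4-hydroxylase, 3 for lysyl hydroxylases and 4 for lysyl oxidases, 53 of the 19938 genes with a probe set of their own on the array. They were chosen by symbol alone, as every collagen chain gene except Col17a1, every P4ha and Plod gene, and Lox with its relatives, where a probe set listed that gene alone. For a gene with more than 1 probe set (Col6a5, Col6a6 and Loxl4), the probe set with the highest mean was used. Of the 53, 51 passed the filter on dim genes and were tested, and P4ha3 and Plod2 did not pass it. Loxl2 shares its probe set with another gene in the platform annotation and is not described.

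The tissue was whole back skin of male C57Bl6 mice at postnatal day 46, with hair follicles at rest (telogen). Collections followed each other at steps of 4 h for 48 h in mice whose lights went off after 12 h, and ZT counts the hours since lights on. Each of the 13 collections gave 1 Affymetrix whole-transcript array from RNA of 3 mice, pooled in equal amounts per the labels, so the error in every test is the spread between pools, and the number of arrays limits the precision. The dark group held 6 arrays (ZT14, ZT18 and ZT22, 2 each) and the light group 7 arrays (ZT2 with 3 arrays, ZT6 and ZT10 with 2 each). Day 2 was the 6 collections at hours 26 to 46 and day 1 the 6 at hours 2 to 22, with a last ZT2 array at hour 50. The labels name no altered gene and no treatment. In bulk tissue, fewer cells of a type and less RNA per cell cannot be told apart.

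Collagens are built from polypeptide chains wound together into a helix. Prolyl 4-hydroxylase acts on the chains in the endoplasmic reticulum, and the hydroxyproline it makes keeps the helix stable at body temperature. Lysyl hydroxylases prepare lysines for sugar attachment and cross-linking. After secretion, lysyl oxidases start the covalent cross-links that give fibrils their strength. Fibroblasts of the dermis make most of the fibrillar collagen of skin, while collagens of the basement membrane lie under the epidermis and around vessels, nerves, muscle fibres and fat cells.

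Values are the deposited probe set intensities, and tests were run with limma on log2(intensity + 16), with p-values adjusted by Benjamini-Hochberg over all 14953 genes tested and a threshold of 0.05. The medians of the 13 columns lay between 353.8 and 392.8, with the lowest in the first ZT2 array (hour 2). The clock genes followed the labelled hours: fitted 24 h curves gave Dbp a 20.8-fold difference with its peak at ZT9.9, and Arntl (Bmal1) a 4.61-fold difference with its peak at ZT22.2. Hair shaft genes stood apart in the second ZT22 array (hour 46), where Krt31 had an intensity of 11248 against 289.8 to 563.7 in the other 12 arrays. Liver genes were measured in every array, with Alb between 5263 and 18775.

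The first ZT2 array (hour 2) stood apart in the collagen genes themselves. It held the lowest of the 13 values for 43 of the 51 tested genes and the highest for none, against 26.8% of all tested genes that had their lowest value there. In it, 41 of the 51 were at least 0.3 lower in log2 than the mean of the other 12 arrays, against 20.3% of all tested genes. The median difference was -0.50 in log2 for the collagen genes and -0.03 for all genes. The cause was not tested.

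Other genes moved in the same array. The 8 dermal fibroblast markers (Pdgfra, Dcn, Lum, Dpt, Fbln1, Twist2, Mfap5 and Clec3b) summed to 34309 in the first ZT2 array, against 36623 to 43894 in the other 12, and 6 of the 8 were lowest there. All 4 macrophage markers were lowest there (summed 5825 against 7618 to 9850), as were 3 of the 5 tendon markers (3833 against 4839 to 6149). Summed adipocyte markers (19896 against 20377 to 26293), hair shaft genes (2100 against 2365 to 32772), small proteoglycans (38416 against 44417 to 52532) and genes of collagen degradation (30006 against 38852 to 47005) were lowest there too. By single gene, 3 of 6 adipocyte markers and 4 of 9 hair shaft genes were lowest there. The same held for 6 of 8 small proteoglycans and 7 of 11 degradation genes. Sums of the other lists used below were lowest there as well. These were procollagen folding and secretion (47414 against 49074 to 58125, 6 of 16 genes lowest) and propeptide cleavage (12712 against 16016 to 18882, 3 of 6). Receptors (10595 against 10835 to 11776, 2 of 8) and TGF beta signalling (10128 against 11289 to 14496, 6 of 8) were the others. The sum of the 5 endothelial markers was the other way round, with 7859 against 5910 to 7335 in the other 12. Pecam1, Kdr and Emcn were highest in the first ZT2 array, while Cdh5 and Tek were not. Summed keratinocyte markers (60690 against 57619 to 63926) and liver markers (39589 against 7244 to 45076) lay within the range of the other arrays. So did skeletal muscle (60291 against 49149 to 74790), smooth muscle and pericyte (10892 against 9600 to 11946) and nerve sheath markers (1011 against 943.6 to 1213). Odorant and pheromone receptor genes (1194 in all, by their median), used as a measure of the dim end of an array, were also lowest in this array, at 6.44 in log2. The part of these genes in the collagen values was not tested, and values without this array are given beside several results below.

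**Figure D1:**
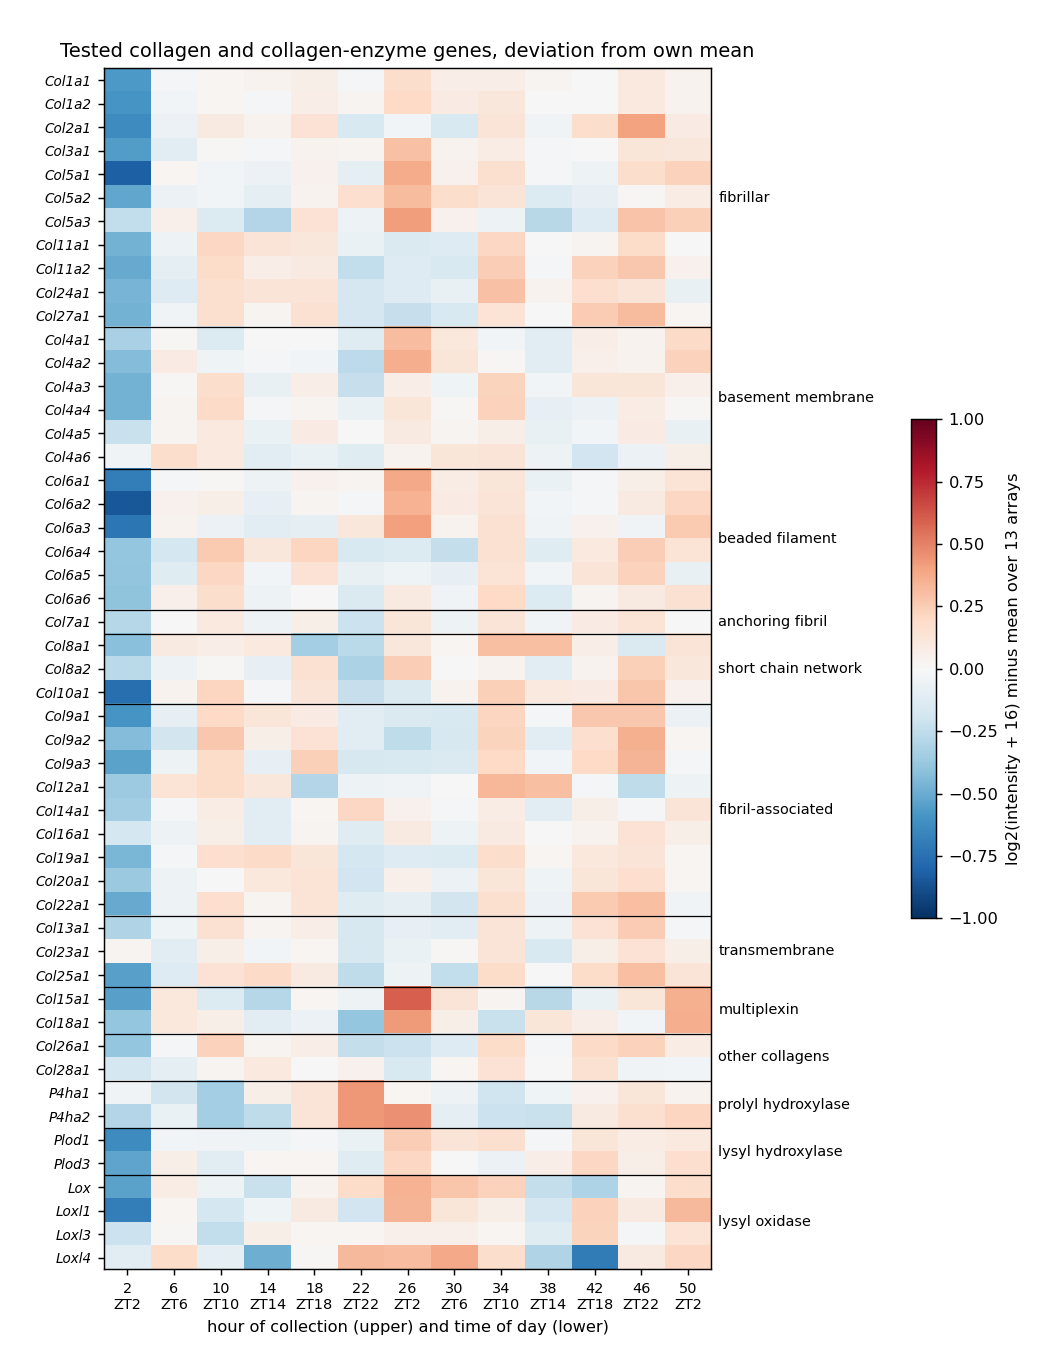
Deviation of each of the 51 tested genes from its own mean over 13 arrays, in log2(intensity + 16), with arrays in order of collection (hour above, time of day below) and genes grouped by role. The column of hour 2 is blue in nearly every row, while no other column has 1 colour throughout; P4ha1 and P4ha2 are red at the first ZT22 array.

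No collagen or enzyme gene passed a test for change over the day. In the fit of a 24 h curve to all 13 arrays, 0 of the 51 passed limma's test, against 2.13% of all tested genes, and 10 (19.6%) had an unadjusted p under 0.05, against 18.6% of all genes. Fitted peak-to-trough folds ran from 1.01 to 1.55, and the median difference was 0.20 in log2, against 0.19 over all genes. Taking the 6 times of day as separate groups, 0 passed limma's test (background 0.294%) and 5 had an unadjusted p under 0.05 (background 8.99%). In dark minus light, 0 passed limma's test (background 0.0201%), 3 had an unadjusted p under 0.05 (background 8.28%), and the median difference was 0.02 in log2 over the collagen genes and -0.02 over all genes.

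Without the first ZT2 array, 5 of the 51 passed limma's test for a 24 h curve, against 2.82% of all genes: P4ha2, Col15a1, Col4a6, P4ha1 and Col5a3. That array was singled out by the low values of these same genes, so the calls are no independent support for a rhythm. Where a fitted peak lies near ZT2, as in Col15a1 and Col5a3, dropping a low ZT2 value raises the level there. The same holds for P4ha2, with its peak at ZT23.3 and ZT2 values of 893.2 in the first array, against 1514 and 1272. In the fit without that array 12 had an unadjusted p under 0.05, Loxl4, Col12a1 and Lox among them, and 18.1% of all genes did. The genes are taken by role below.

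Among the 11 fibrillar collagen genes, none passed limma's 24 h test with all arrays, and 2 (Col24a1 and Col5a3) had an unadjusted p under 0.05. Col1a1, which encodes the main chain of type I collagen, the bulk protein of the dermis, had intensities of 16142, 16667 and 17428 (lowest, median and highest) in the 6 dark arrays, against 10929, 16695 and 18388 in the 7 light arrays. Col1a2, the partner chain, had 14793, 15193 and 16069 in dark arrays, against 9976, 15370 and 17238 in light arrays. Col3a1, whose type III collagen shares fibrils with type I, had 8769, 9020 and 9656 in dark arrays, against 6033, 9116 and 10916 in light arrays. For all 3 genes the groups overlapped, the dark values lay inside the light ones, and the lowest light value was that of the first ZT2 array.

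The ratio of the first ZT2 array to the others gave the size of that low value. Col1a1, Col1a2 and Col3a1 were 1.54-fold, 1.56-fold and 1.52-fold lower there than the mean of the other 12 arrays. Leaving that array out, the standard deviation of Col1a1 over arrays was 0.05 in log2, and 0.18 with it. Dark minus light was 0.07 ± 0.10 in log2 (SE) for Col1a1, 0.05 ± 0.10 for Col1a2 and 0.05 ± 0.10 for Col3a1, with limma's adjusted p from 0.87 to 0.92. The fitted peak-to-trough folds were 1.09, 1.07 and 1.05.

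**Figure D2:**
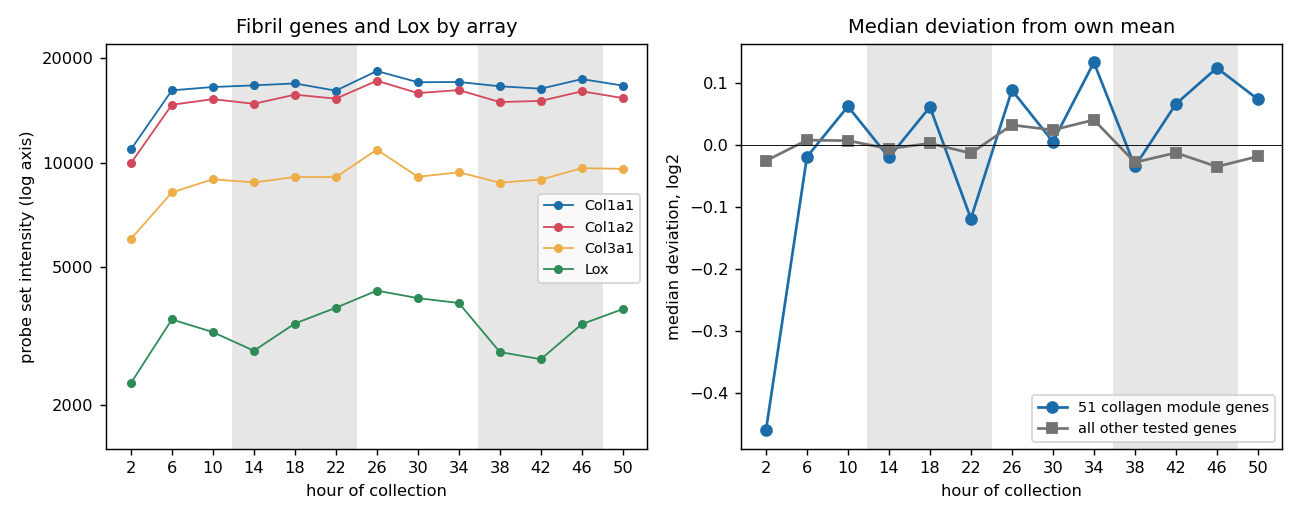
Left, intensity (log axis) of Col1a1, Col1a2, Col3a1 and Lox in each array by hour of collection, with dark phases shaded; right, the median deviation from own mean (log2) over the 51 collagen and enzyme genes and over all other tested genes. The hour 2 array lies at -0.46 for the collagen and enzyme genes and at -0.03 for all other genes, and the remaining arrays lie between -0.12 and 0.13.

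The genes of type V collagen, which starts fibrils and sets their width, were Col5a1, Col5a2 and Col5a3. Col5a1 was 1.85-fold lower in the first ZT2 array than in the other 12, with 1054 against 1749 to 2426. Col5a3 was not lowest there. Its 3 ZT2 values were 512.1, 818.9 and 719.9, its ZT14 values 493.4 and 498.2, and its ZT22 values 587.0 and 745.4. The ZT14 values were thus the lowest and 2 of the 3 ZT2 values among the highest. Its 24 h curve had a fold of 1.29 with limma's adjusted p = 0.27 over all arrays, and a fold of 1.42 with its peak at ZT1.3 and adjusted p = 0.049 without the first ZT2 array.

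The remaining fibrillar genes are known from cartilage and other tissues: Col2a1, Col11a1 and Col11a2 encode cartilage collagens, and Col24a1 and Col27a1 minor fibrillar chains. Col24a1 had 185.1, 231.5 and 238.3 in dark arrays, against 148.3, 198.7 and 261.5 in light arrays, and the groups overlapped. Its ZT2 values of 148.3, 191.1 and 199.2 lay below both ZT10 values of 237.2 and 261.5. Its fitted fold was 1.31 with the peak at ZT14.0 and limma's adjusted p = 0.16, and 1.22 with adjusted p = 0.23 without the first ZT2 array. The midline of its curve, 7.84 in log2, lay near the dimmest mean of any tested gene, 7.77. With the dim end of the arrays as a covariate, its 24 h difference was 0.179 in log2, against 0.385 without it. Limma's adjusted p was then 0.61. Of the 6 cartilage markers measured, only Cnmd passed the filter; the other 5, Acan and Matn1 among them, did not.

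Of the 6 basement membrane genes, which encode the chains of type IV collagen, Col4a6 had the second smallest p of the 51 in the 24 h test. Col4a1 and Col4a2 encode the pair found in nearly all basement membranes, Col4a3 and Col4a4 encode chains best known from kidney, and Col4a5 and Col4a6 encode a pair found under the epidermis. The genes of each pair lie head to head. The promoter windows below (250 bases before and 50 after the start, from RefSeq on GRCm38.p6) are shown because chains of 1 molecule are compared further on. The Col4a1 window (chr8:11312777-11313076, minus strand) and the Col4a2 window (chr8:11312555-11312854, plus strand) overlap by 78 bases, in capitals.
Col4a1: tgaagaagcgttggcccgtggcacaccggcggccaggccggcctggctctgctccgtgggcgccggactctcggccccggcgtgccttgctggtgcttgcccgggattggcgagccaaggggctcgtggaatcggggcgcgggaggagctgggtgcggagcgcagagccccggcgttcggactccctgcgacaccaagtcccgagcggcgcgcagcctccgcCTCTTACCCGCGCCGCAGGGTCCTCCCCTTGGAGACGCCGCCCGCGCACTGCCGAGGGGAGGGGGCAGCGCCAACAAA
Col4a2: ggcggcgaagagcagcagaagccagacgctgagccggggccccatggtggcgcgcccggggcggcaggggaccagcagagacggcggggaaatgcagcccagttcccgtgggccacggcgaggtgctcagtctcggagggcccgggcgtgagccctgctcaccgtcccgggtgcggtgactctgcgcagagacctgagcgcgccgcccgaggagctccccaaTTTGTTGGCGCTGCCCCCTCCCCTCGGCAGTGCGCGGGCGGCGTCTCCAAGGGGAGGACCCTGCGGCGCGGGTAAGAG
The Col4a5 window (chrX:141475169-141475468, plus strand) and the Col4a6 window (chrX:141474027-141474326, minus strand) do not overlap and lie 842 bases apart. Capitals mark GGGCGG or its complement, the GC box, found once in each.
Col4a5: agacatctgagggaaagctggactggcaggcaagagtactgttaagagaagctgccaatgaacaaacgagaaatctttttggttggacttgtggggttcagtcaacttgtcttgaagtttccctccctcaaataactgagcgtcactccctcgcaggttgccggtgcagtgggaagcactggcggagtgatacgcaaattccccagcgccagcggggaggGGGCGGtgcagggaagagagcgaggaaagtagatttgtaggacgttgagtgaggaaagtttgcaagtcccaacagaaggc
Col4a6: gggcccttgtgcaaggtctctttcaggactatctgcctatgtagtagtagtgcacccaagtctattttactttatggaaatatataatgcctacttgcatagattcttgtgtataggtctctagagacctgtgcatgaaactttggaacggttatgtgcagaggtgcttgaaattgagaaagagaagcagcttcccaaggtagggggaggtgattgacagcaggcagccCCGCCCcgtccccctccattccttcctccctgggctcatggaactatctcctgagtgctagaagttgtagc

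Col4a6 was the one tested gene of the module whose dark and light values did not overlap, against 0.361% of all tested genes: 306.0, 331.0 and 338.0 in dark arrays, against 343.1, 377.3 and 399.2 in light arrays. By time of day its values were 343.1, 360.3 and 367.4 at ZT2, 399.2 and 384.3 at ZT6, 377.3 and 385.4 at ZT10, 326.4 and 338.0 at ZT14, 335.6 and 306.0 at ZT18, and 322.3 and 337.6 at ZT22. On both days the highest values were at ZT6 and ZT10 and all 3 dark values lay below all 3 light values. Dark minus light was -0.18 ± 0.05 in log2 (SE) with limma's adjusted p = 0.36. The 24 h fit gave a 1.22-fold difference with its peak at ZT6.9 ± 0.8 h (SE) and adjusted p = 0.062, and without the first ZT2 array a 1.23-fold difference with adjusted p = 0.040.

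The other type IV genes had fitted folds from 1.03 (Col4a5) to 1.15 (Col4a3), and none had an unadjusted p under 0.05. Col4a3 had 299.2, 359.5 and 386.8 in dark arrays, against 250.9, 366.3 and 416.3 in light arrays. All 5 were lowest in the first ZT2 array, from 1.19-fold lower (Col4a5) to 1.43-fold lower (Col4a4), while Col4a6 was 1.03-fold lower there.

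The 6 genes of type VI collagen, which forms beaded filaments around cells, were all lowest in the first ZT2 array. Col6a2 had 1872 there, against 3197 to 4309 in the other 12 arrays, and was 1.89-fold lower, the lowest of the 51. Col6a1 was 1.68-fold and Col6a3 1.72-fold lower, and Col6a4, Col6a5 and Col6a6 were 1.34-fold to 1.36-fold lower. None had an unadjusted p under 0.05 in the 24 h test with all arrays. Without that array Col6a3 (fold 1.22, peak ZT2.5) and Col6a2 (fold 1.17, peak ZT3.0) did, with limma's adjusted p = 0.24 and 0.26.

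Col7a1, the chain of the anchoring fibrils that tie the epidermal basement membrane to the dermis, had a fitted fold of 1.07 with limma's adjusted p = 0.77. Its values were 664.3, 780.7 and 853.6 in dark arrays, against 630.4, 775.6 and 845.9 in light arrays, so the groups overlapped almost fully. Of the 3 network-forming short chains, Col8a1, a collagen of vessel walls and of the cornea, had 288.0, 359.0 and 457.4 in dark arrays, against 272.0, 393.4 and 457.1 in light arrays. Its fold was 1.32 with the peak at ZT10.2 and adjusted p = 0.25. Col10a1, the collagen of hypertrophic cartilage, had 199.6, 253.2 and 291.3 in dark arrays, against 134.1, 244.0 and 281.9 in light arrays, where the lowest value again was that of the first ZT2 array.

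The 9 fibril-associated genes encode collagens that bind to the surface of fibrils and link them to other molecules. Col12a1, found in tissues under tension, had 837.3, 1006 and 1272 in dark arrays, against 796.7, 1031 and 1299 in light arrays. Those ranges overlapped. Its values were 1171 and 1299 at ZT10 and 1117 and 1272 at ZT14, against 837.3 and 1021 at ZT18 and 991.4 and 862.3 at ZT22. The 4 arrays of ZT10 and ZT14 thus lay above the 4 of ZT18 and ZT22. The fitted fold was 1.39 with the peak at ZT10.7 ± 0.9 h (SE) and limma's adjusted p = 0.074.

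Within the same role, Col19a1 and Col9a1 had folds of 1.26 and 1.31 with peaks at ZT14.0 and ZT14.9, and limma's adjusted p = 0.22 and 0.26. Col14a1 and Col16a1, both known from dermis, had folds of 1.03 and 1.02. All 9 were lowest in the first ZT2 array, from 1.14-fold (Col16a1) to 1.56-fold (Col9a1). The 3 transmembrane collagens had folds of 1.15 (Col13a1), 1.01 (Col23a1) and 1.27 (Col25a1), with adjusted p from 0.35 upward. Col23a1 was the one tested member that was not lower in the first ZT2 array, with 629.0 against 551.1 to 683.9 in the others.

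The multiplexins Col15a1 and Col18a1 lie in or beside basement membranes, and Col18a1 is the source of endostatin. Col15a1 had 1371, 3032 and 2566 at ZT2, 2158 and 2191 at ZT6, 1820 and 2039 at ZT10, 1639 and 1647 at ZT14, 2035 and 1915 at ZT18, and 1932 and 2180 at ZT22. The 3 ZT2 arrays held the lowest and the 2 highest of the 13 values. Its fitted fold was 1.27 with limma's adjusted p = 0.46 over all arrays, and 1.50 with the peak at ZT2.2 and adjusted p = 0.031 without the first ZT2 array. Col18a1 had a fold of 1.11, and Col26a1 and Col28a1 had 1.21 and 1.14, with adjusted p from 0.27 upward.

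Of the 51 genes, P4ha1 had the smallest p in the 24 h test and P4ha2 the fourth smallest. P4ha1 encodes the catalytic subunit most tissues use. It had 1508, 1658 and 2102 in dark arrays, against 1225, 1498 and 1593 in light arrays. By time of day it had 1519, 1576 and 1593 at ZT2, 1370 and 1498 at ZT6, 1225 and 1354 at ZT10, 1621 and 1508 at ZT14, 1700 and 1605 at ZT18, and 2102 and 1696 at ZT22. On both days the lowest value was at ZT10, and the 4 arrays of ZT18 and ZT22 lay above all 7 light arrays. The 24 h fit gave a 1.36-fold difference with the peak at ZT20.9 ± 0.7 h (SE) and limma's adjusted p = 0.053. Dark minus light was 0.23 ± 0.08 in log2 (SE) with adjusted p = 0.51.

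P4ha2 encodes a second catalytic subunit, with a larger share in cartilage and bone. It had 893.2, 1514 and 1272 at ZT2, 1044 and 1026 at ZT6, 864.2 and 943.6 at ZT10, 915.7 and 936.5 at ZT14, 1197 and 1166 at ZT18, and 1484 and 1224 at ZT22. The first ZT2 array lay with the low values of ZT10 and ZT14, while the other ZT2 arrays lay with those of ZT22. With all arrays its fold was 1.48, the peak at ZT22.6 ± 0.9 h (SE) and limma's adjusted p = 0.10. Without the first ZT2 array the fold was 1.59, the peak at ZT23.3 ± 0.5 h (SE) and adjusted p = 0.0044, and P4ha1 then had a fold of 1.37 and adjusted p = 0.046.

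P4ha1 and P4ha2 are known targets of the hypoxia-inducible factors, whose DNA binding core includes ACGTG, and their promoter windows are shown with each ACGTG on either strand in capitals. They lie at chr10:59323046-59323345 and chr11:54100674-54100973, both on the plus strand, with 1 match in P4ha1 and 2 in P4ha2, to set beside the values above.
P4ha1: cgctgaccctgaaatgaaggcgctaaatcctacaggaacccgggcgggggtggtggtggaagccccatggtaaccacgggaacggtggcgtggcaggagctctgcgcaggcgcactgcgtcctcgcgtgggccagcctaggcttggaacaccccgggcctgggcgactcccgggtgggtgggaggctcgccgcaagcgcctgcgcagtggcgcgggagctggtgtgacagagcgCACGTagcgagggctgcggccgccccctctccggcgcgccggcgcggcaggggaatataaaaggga
P4ha2: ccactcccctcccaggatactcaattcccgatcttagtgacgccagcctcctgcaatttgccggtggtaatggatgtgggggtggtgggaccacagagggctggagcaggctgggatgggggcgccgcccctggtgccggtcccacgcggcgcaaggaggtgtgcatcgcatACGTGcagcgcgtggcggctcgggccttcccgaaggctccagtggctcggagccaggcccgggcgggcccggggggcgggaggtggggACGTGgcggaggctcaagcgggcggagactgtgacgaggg
A match is a description of the letters. The same 5 letters occurred in 8 of the 43 windows found for 40 of the 53 genes (18.6%), and in 19.6% of all 32851 mouse promoter windows of that length.

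Other motifs were searched on both strands of the same windows. CACGTG, the E-box bound by the clock proteins CLOCK and BMAL1, which contains ACGTG, was in 0 of the 43 windows and in 7.15% of all windows. TTATGTAA, the D-box of DBP, was in 0 of 43 and in 0.94% of all. AGGTCA, the core letters bound by REV-ERB and ROR receptors, was in 8 of 43 (18.6%) and in 16.3% of all. The GC box GGGCGG was in 28 of 43 (65.1%) and in 35.7% of all, and CCAAT was in 13 of 43 (30.2%) and in 37.4% of all. The absence of a match says only that these letters are not in these windows.

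P4ha3, the third catalytic subunit, did not pass the filter, with intensities from 75.9 to 129.4. Among the lysyl hydroxylases, Plod1, which hydroxylates lysines of the helix, had 2870, 2976 and 3262 in dark arrays, against 1940, 3223 and 3564 in light arrays. Plod3, which also adds the sugars, had 1428, 1597 and 1790 in dark arrays, against 1074, 1557 and 1793 in light arrays. In both genes the groups overlapped, the first ZT2 array was lowest, and the fitted folds were 1.06 and 1.08. Plod2, which hydroxylates the telopeptides used in cross-links, did not pass the filter; it had 132.2, 190.7 and 241.3 in dark arrays, against 179.0, 195.4 and 221.6 in light arrays.

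Lox, the founding lysyl oxidase, had 2717, 3152 and 3823 in dark arrays, against 2320, 3790 and 4284 in light arrays. Its ZT14 values were 2874 and 2850, and its ZT2 values 2320, 4284 and 3790, so the first ZT2 array again lay apart from the other ZT2 arrays. The fitted fold was 1.22 with limma's adjusted p = 0.55, and without the first ZT2 array 1.38 with the peak at ZT3.4 and adjusted p = 0.076. Loxl1, which is needed for elastic fibres, had 1685, 1965 and 2273 in dark arrays, against 1192, 2012 and 2446 in light arrays, and a fold of 1.05. Loxl3 had a fold of 1.09.

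Loxl4 had the largest fitted fold of the 51, at 1.55, with the peak at ZT3.7 ± 1.1 h (SE) and limma's adjusted p = 0.15. Its values were 729.1, 978.8 and 909.4 at ZT2, 895.8 and 1028 at ZT6, 738.6 and 893.1 at ZT10, 558.0 and 637.6 at ZT14, 795.7 and 478.1 at ZT18, and 991.7 and 837.3 at ZT22. The ZT14 values and 1 of the 2 ZT18 values lay below all others. The pair of ZT18 values lay farther apart than any other pair of this gene. Dark minus light was -0.33 ± 0.15 in log2 (SE) with adjusted p = 0.59, and dark values (478.1, 716.7 and 991.7) overlapped the light values (729.1, 895.8 and 1028).

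**Figure D3:**
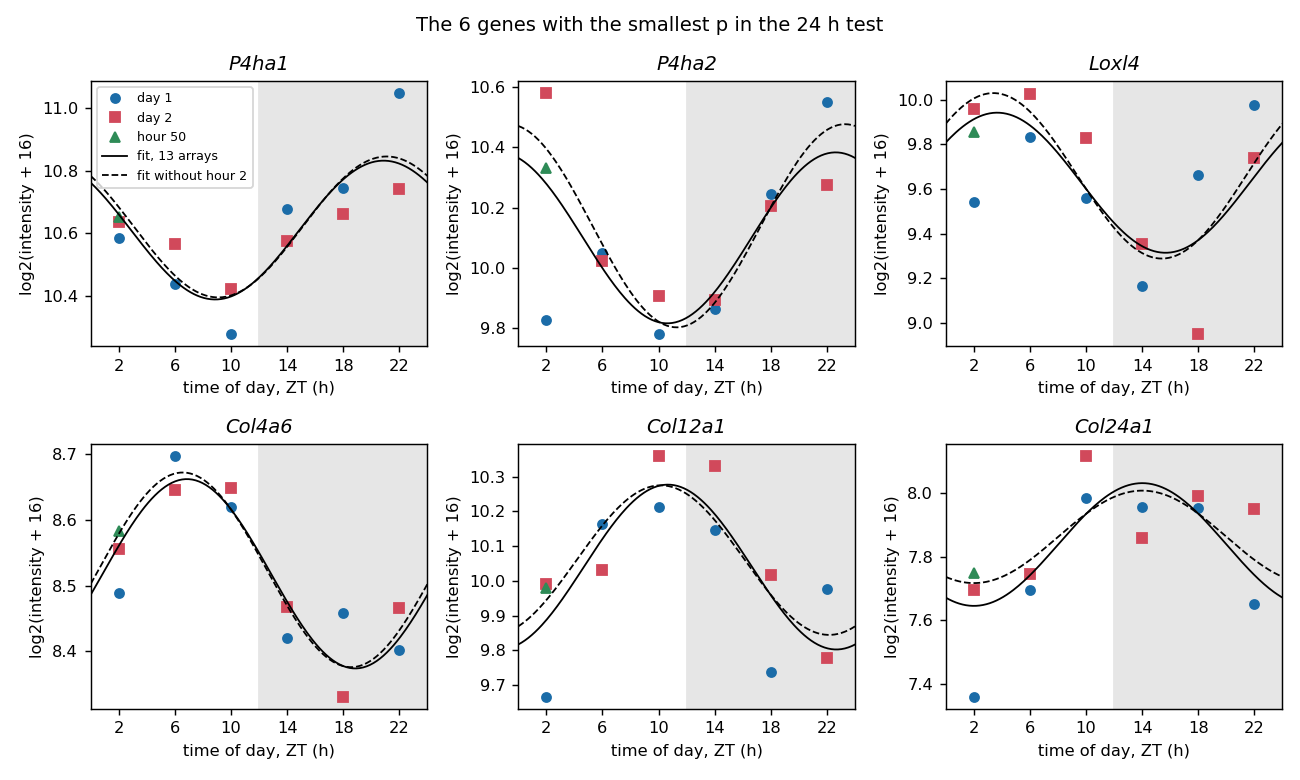
log2(intensity + 16) by time of day (ZT, dark shaded) for the 6 genes with the smallest p in the 24 h test, with points marked by day and the fitted 24 h curves over 13 arrays (solid) and without the hour 2 array (dashed). P4ha1 and P4ha2 peak late in the dark phase, and the hour 2 point lies far below its curve in P4ha2, Loxl4, Col12a1 and Col24a1.

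**Figure D4:**
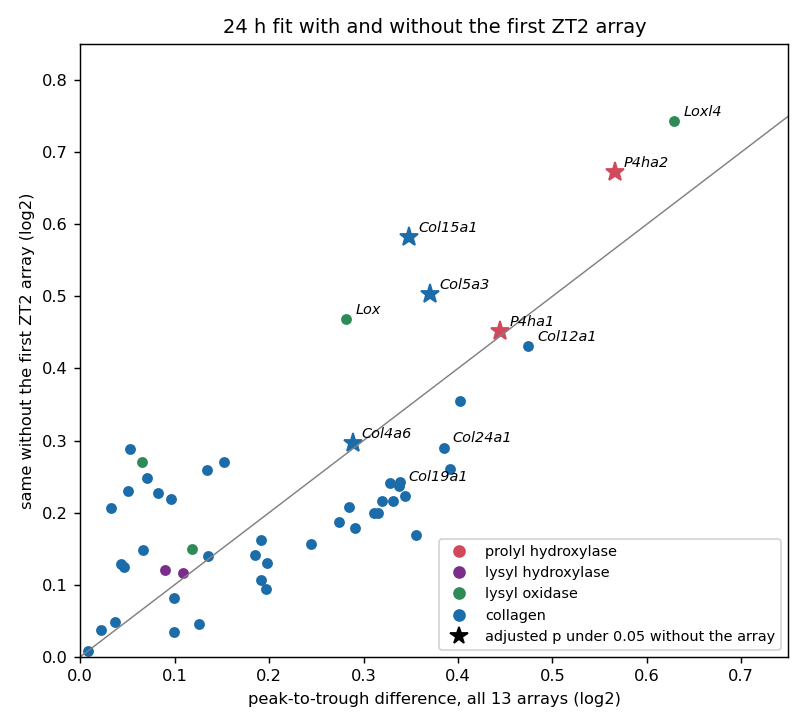
Fitted peak-to-trough difference (log2) of each of the 51 genes over all 13 arrays (x) and without the first ZT2 array (y), coloured by role, with the line of equal values. Stars mark the 5 genes that passed limma's test without that array; Col15a1, Col5a3, Lox and P4ha2 lie above the line and Col24a1 below it.

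Between the days, nearly all members had a higher mean on day 2, and none passed the test. By pair they were less even: the pairs higher on day 2 ran from 2 of 6 (Col11a1, Col4a5 and Col6a4) to 6 of 6 (Plod1 and Col16a1). In the limma fit paired by time of day, 0 of 51 passed (background 0%), and 2 had an unadjusted p under 0.05 (background 6.53%). The estimate was above 0 for 50 of 51, against 53% of all tested genes, with a median of 0.14 in log2 for the collagen genes and 0.01 for all genes. Without the first ZT2 array, 41 of 51 were above 0, against 47.4% of all genes, and the median was 0.06, against -0.01 over all genes. The exception with all arrays was P4ha1, at -0.03 ± 0.07 in log2 (SE).

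The 2 genes under 0.05 were Col8a1 and Plod1. Col8a1 had 331.8, 392.9 and 457.4 on day 2, against 272.0, 344.4 and 395.1 on day 1, and was higher in 5 of 6 pairs, by 0.24 ± 0.08 in log2 (SE, limma's adjusted p = 0.60). Plod1 had 2978, 3274 and 3564 on day 2, against 1940, 2926 and 2974 on day 1, and was higher in 6 of 6 pairs, by 0.25 ± 0.11 in log2 (SE), and by 0.13 without the first ZT2 array. Its days did not overlap, which held for 0.328% of all tested genes and for no other member, but the difference did not pass the test after adjustment (limma's adjusted p = 0.60). The day by rhythm interaction gave 0 of 51 by limma (background 0%) and 3 with an unadjusted p under 0.05 (background 12.8%): Col4a2, Col8a2 and Col25a1.

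Chains that assemble into 1 molecule or 1 fibril were compared over the 13 arrays in 14 pairs, with two-sided permutation tests adjusted over the pairs. In 12 of 14 the correlation passed, by Pearson's r and by Spearman's rho. Col1a1 and Col1a2 had r = 0.99 (permutation p = 2e-05, adjusted 5.6e-05) and rho = 0.84 (permutation p = 0.00071), and r = 0.79 without the 2 arrays farthest from the median of Col1a1. Col4a1 and Col4a2, with the overlapping promoter windows shown above, had r = 0.96 (permutation p = 1e-05, the smallest that the permutations can give) and rho = 0.95, and r = 0.87 without the 2 farthest arrays. Col6a1 and Col6a2 had r = 0.99 and rho = 0.93, and r = 0.88 without the 2 farthest. The passing pairs include those among Col9a1, Col9a2 and Col9a3, and Col11a1 with Col11a2. These 5 genes had r from 0.77 (Col9a3) to 0.89 (Col9a1) with the dim end of the arrays, as given further on. The part of that shared level in the pair correlations was not tested.

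Other pairs were less alike. Col5a1 and Col5a2 had r = 0.86 (permutation p = 0.0017) and rho = 0.60 (permutation p = 0.033), but r = 0.31 without the 2 farthest arrays (the first and second ZT2 arrays), so that relation rests on them. Col4a5 and Col4a6, whose windows lie 842 bases apart, had r = 0.31 (permutation p = 0.31) and rho = 0.26. Col8a1 and Col8a2 had r = 0.26 (permutation p = 0.38) and rho = 0.16. The median r over the 14 pairs was 0.93, and 0.86 without the first ZT2 array. For scale, the median r over all 1275 pairs of the 51 genes was 0.57, and 0.23 without that array, against 0.02 over all pairs of tested genes.

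Each member was also set against array-wide levels: the receptor genes at the dim end and the mean of the dermal fibroblast markers, 102 relations over 13 arrays. With the dim end, 14 of 51 (27.5%) had r above 0.8, against 7% of all tested genes. They were Col2a1, Col6a4, Col9a1, Col9a2, Col11a1, Col11a2, Col13a1, Col19a1, Col20a1, Col22a1, Col24a1, Col25a1, Col26a1 and Col27a1, with no enzyme among them. For Col19a1, r was 0.91 (permutation p = 2e-05, adjusted 0.0015) and rho 0.90 (permutation p = 9e-05), and r was 0.84 without the 2 arrays farthest from the median dim end (the first ZT2 and first ZT14 arrays). Without the first ZT2 array alone, r was above 0.8 for 2 of 51 (3.92%), Col19a1 at 0.85 and Col9a1 at 0.805, against 2.39% of all tested genes. Without both farthest arrays it was above 0.8 for 15. The share of all genes was not computed there, so that count cannot be set against a background.

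With the fibroblast markers, 7 of 51 (13.7%) had r above 0.8, against 0.742% of all tested genes: Col1a2, Col3a1, Col5a2, Col6a1, Col6a3, Col14a1 and Lox. For Col5a2, r was 0.91 (permutation p = 3e-05, adjusted 0.0015) and rho 0.87 (permutation p = 0.00031), and for Col14a1 r was 0.89 (permutation p = 1e-04) and rho 0.73 (permutation p = 0.0059). Without the 2 arrays farthest from the median of the markers (the first ZT2 and second ZT14 arrays), none of the 51 had r above 0.8, and the share of all genes was not computed. Col5a2 then had r = 0.79 and Col14a1 0.71. Without the first ZT2 array alone, 1 of 51 (1.96%) did, Col5a2 at 0.83, against 1.46% of all tested genes. No gene was on both lists. P4ha1 had r = -0.13 with the dim end (permutation p = 0.67) and 0.37 with the fibroblast markers (permutation p = 0.21), and P4ha2 had -0.14 (permutation p = 0.64) and 0.69 (permutation p = 0.0077, adjusted 0.027). By rho the relation of P4ha2 to the fibroblast markers did not pass, at 0.67 (permutation p = 0.015, adjusted 0.063).

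**Figure D5:**
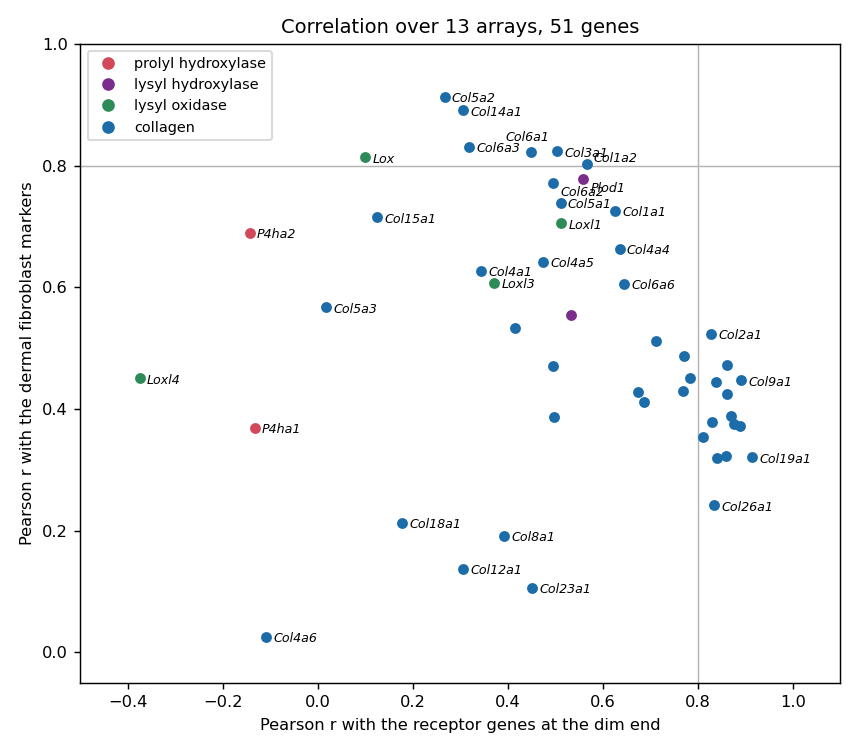
Pearson r over 13 arrays of each of the 51 genes with the median of the receptor genes at the dim end (x) and with the mean of the dermal fibroblast markers (y); grey lines mark 0.8. Over all 13 arrays 14 genes lie right of the vertical line (2 without the first ZT2 array), 7 lie above the horizontal line, and P4ha1, P4ha2, Loxl4 and Col4a6 lie left of the rest.

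Other genes that handle collagen were counted from lists, against the same 2.13% of all genes that passed the 24 h test. The share was 2.82% without the first ZT2 array. That array was singled out by low values of the collagen genes, so calls made without it are no independent support for a rhythm. Of 16 tested genes for procollagen folding and secretion, 1 passed limma's 24 h test: P3h4, a partner of the prolyl 3-hydroxylase complex, with a 1.39-fold difference, a peak at ZT1.5 and adjusted p = 0.030. It had 777.0, 932.0 and 1196 in dark arrays, against 911.9, 1062 and 1265 in light arrays. Serpinh1, the collagen chaperone HSP47, had adjusted p = 0.34 with all arrays and 0.0093 without the first ZT2 array. Of 6 tested genes for propeptide cleavage, 0 passed limma's test and 0 had an unadjusted p under 0.05, with Tll1 and Adamts3 nearest at adjusted p = 0.31 and 0.40.

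Of 11 tested genes for collagen degradation and uptake, 1 changed: Timp4, an inhibitor of matrix metalloproteinases, with a 1.50-fold difference, a peak at ZT18.8 and limma's adjusted p = 0.014. It had 833.2, 1027 and 1086 in dark arrays, against 680.8, 752.1 and 840.7 in light arrays, with a small overlap. Without the first ZT2 array 3 of the 11 passed, against 2.82% of all genes, and 7 of the 11 were lowest in that array. Timp1 then had limma's adjusted p = 0.028, Timp3 0.048 and Timp4 0.014, while with all arrays Timp1 had 0.24 and Timp3 0.074. Of 8 tested receptors, 1 changed: Lair1, an inhibitory collagen receptor of immune cells, with a 1.34-fold difference, a peak at ZT11.0 and adjusted p = 0.033. Of 8 genes of TGF beta signalling and its targets, 0 passed limma's test with all arrays and 2 had an unadjusted p under 0.05; Tgfb2 had a 1.70-fold difference with its peak at ZT7.3 and adjusted p = 0.051, and 0.0075 without the first ZT2 array. Of 8 small proteoglycans, 0 passed limma's test and 0 had an unadjusted p under 0.05.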

How the data were processed

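Gene expression was measured in 13 pools of whole back skin, 1 array each. The authors deposited linear intensities per probe set, made with Affymetrix Expression Console 1.1.1 and PLIER 2.0, per the submitters' processing notes. How arrays were normalized is, like the genome build, not given in the sources used here. Of 35557 probe sets, those with 1 gene in the platform annotation were kept, with the highest-mean probe set per gene. Values were taken as log2(intensity + 16), and the dimmest 25% of genes were left out.

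Tests used limma 3.58.1 in R 4.3.3 with Benjamini-Hochberg adjustment over 14953 genes: a 24 h cosine and sine (10 residual degrees of freedom), the 6 times of day, dark minus light, day 2 minus day 1 with time of day as a factor (12 arrays), and day by rhythm. The code was tested on simulated data. Correlations used 100000 permutations. The members and lists were chosen with earlier results of these data known. By rule, values by array were given for Col1a1, Col1a2, Col3a1, Lox, P4ha1, Plod2, members called in any test, and up to 6 members with the smallest p in the 24 h and in the day test. Values by array of Col5a3, Col7a1 and Col15a1 were added after they were seen.

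Replicate numbers mark the collection day of separate pools. Deviations of day 2 arrays correlated between times of day from -0.66 to 0.53 over 15 pairs, so they do not pair the arrays. Promoters are RefSeq windows on GRCm38.p6, matched by symbol for 40 of 53 genes. Alternatives covered the offset, filter, normalization, choice of probe set, variance trend, day as a block, and single arrays left out.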

Additional observations from a re-analysis of the deposited data

Results flagged for a closer look

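Within the dark and the light arrays of the 17 genes named by rule (34 groups), the gap of the highest or lowest array to its neighbour was set against the range of the group, and chance flags about 1 in 20 such groups. A total of 8 groups exceeded the limit. In 7 of them, all of light arrays, the first ZT2 array was the low one, so these are 1 array seen in 7 genes. Of these genes, Col8a1, Plod1, Col10a1, Col4a3 and Plod3 were named for a small p in day 2 minus day 1. The first ZT2 array is part of that difference, so the rate of 1 in 20 does not apply to them.

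Among the fibril genes, Col1a1 had 10929 in the first ZT2 array with the next lowest light value at 16178, a gap of 0.754 of the range, and Col1a2 had 9976 with the next at 14701, a gap of 0.709. Plod1 had 1940 with the next at 2938 (0.682 of the range) and Plod3 had 1074 with the next at 1444 (0.576). Col10a1 had 134.1 with the next at 212.7 (0.614), Col4a3 had 250.9 with the next at 342.4 (0.611) and Col8a1 had 272.0 with the next at 373.9 (0.61).

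The exception was P4ha1 in dark arrays, where the first ZT22 array was high at 2102, with the next highest at 1700, a gap of 0.639 of the range. The second ZT22 array had 1696.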

How the results depend on the processing

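The 24 h test called 0 of the 51 genes with all arrays. It called 1 (P4ha1) with an offset of 64, with the dimmest 50% left out, with arrays shifted to the same median or with an intensity trend in the variance, and 2 (Col4a6 and P4ha1) under quantile normalization. All-gene calls in these settings, in the same order, were 319, 278 (from fewer genes tested), 303, 329 and 399, against 318 in the main setting. Leaving out single arrays gave 0 to 5 of the 51, with the 5 only without the first ZT2 array. A further 3 alternatives were chosen after seeing the data: leaving out both the first ZT2 and the second ZT22 array gave 3 (Col15a1, P4ha1 and P4ha2), the fibroblast markers as a covariate gave 2 (Col12a1 and P4ha2), and the dim end as a covariate gave 0. All-gene calls in these 3 were 430, 404 and 165. Over 25 alternatives limma's adjusted p of P4ha1 ran from 0.021 to 0.17 and that of P4ha2 from 0.0021 to 0.24. The test of 6 times of day called 8 genes with both arrays left out (Col4a2, Col5a3, Col8a2, Col9a3, Col15a1, Col24a1, P4ha1 and P4ha2), where it called 1474 of all genes, against 44 in the main setting. The causes were not tested.

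With the collection day as a replicate block, which the check of pairing did not bear out, the 24 h test called 0 of the 51 genes and 212 of all genes, against 318 without the block. With single arrays left out, all-gene 24 h calls ran from 128 without the first ZT14 array to 422 without the first ZT2 array, and they were 430 without both the first ZT2 and second ZT22 arrays. Dark minus light, day 2 minus day 1 and day by rhythm called 0 of the 51 in every alternative run. Of the chain pairs, 12 passed in the main setting and 7 with the dimmest 50% left out, which leaves fewer pairs to test; a variance trend has no meaning for them and gave no value. No dark minus light or day difference that was recomputed changed sign. Fitted 24 h differences carry no sign, but fitted peaks of genes that did not pass moved: without the first ZT2 array Col1a1, Col1a2 and Col3a1 peaked at ZT2.1, ZT1.8 and ZT0.62, against ZT14.0, ZT14.2 and ZT17.4 with all arrays.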

Other observations

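The number of members above their own mean differed between arrays beyond the first ZT2 array, where it was 1 of 51. It was 12 in the first ZT22 and in the second ZT14 array, 45 in the second ZT10 array and 43 in the first ZT18 and the second ZT22 array. The 2 ZT22 arrays thus lay on opposite sides, with median deviations of -0.12 and 0.12 in log2, against -0.01 and -0.03 over all genes. Their dim ends were at 6.62 and 6.97 in log2, and the part of that level was not tested. Over all genes the median deviation was 0.04 in the second ZT10, -0.03 in the second ZT14 and 0.003 in the first ZT18 array. The share of all genes above their own means was not computed. In the first ZT22 array P4ha1, P4ha2, Loxl4, Col14a1, Col5a2 and Lox were above their means while Col4a2, Col8a2, Col9a3, Col11a2, Col18a1 and Col25a1 were below. These genes were picked after their values were seen.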
